A study of Mus musculus with 12 samples.

Results

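Complement is a blood-borne defence cascade in which one protein activates the next until targets are coated and inflammatory fragments are released. The 9 complement genes described here are C1qa, C1qb and C1qc, which encode the chains of C1q; Cfp, which encodes properdin; C3; the anaphylatoxin receptor genes C3ar1 and C5ar1; and the membrane regulator genes Cd55 and Cr1l. They are 9 of the 21853 genes in the deposited table, each was found once by its symbol, and all 9 passed the filter for testing, which kept 10994 genes with at least 1 FPKM in at least 3 libraries. FPKM is a level per transcript length and per mapped fragment of the library. The set was selected on FPKM comparisons of these same 12 libraries, whose results were known when it was proposed, so their values are given as a description, with no p-value for any of the 9, and the counts of them past the test threshold support nothing further.

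The libraries came from whole bone marrow cells of B6 mice, taken 14 days after total body irradiation (TBI) where irradiation was given. There were 4 groups of 3 libraries: control mice without irradiation; a TBI group given 5 Gy of gamma rays at 0.66 Gy per minute and, by gavage, 100 uL of olive oil as vehicle; a TBI+DEIX group given the same irradiation and oral DEIX; and a DEIX group given DEIX without irradiation. DEIX was dosed at 25 mg/kg daily for 14 days. Age, sex and the number of mice behind each library are not given in the labels, nor is vehicle for the control and DEIX groups. For the TBI+DEIX group no vehicle volume is recorded. An effect of the oil cannot be told apart from irradiation in TBI against control or from DEIX in DEIX against control. The same limit holds for DEIX in TBI+DEIX against TBI. Nothing in the labels says that the 3 libraries of a group came from separate mice, and p-values then measure only the spread between these libraries.

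C1q is the recognition molecule of the classical pathway and is made largely by tissue macrophages, in contrast to most plasma complement, which comes from the liver. C3 is the hub on which the classical, lectin and alternative pathways meet, and properdin, made by myeloid cells, steadies the alternative pathway enzyme that cleaves it. The cleavage fragments C3a and C5a act through C3ar1 and C5ar1 on myeloid cells, while Cd55 (decay accelerating factor) and Cr1l (Crry, the mouse membrane inhibitor) protect the cell's own surface from C3 deposition.

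The marrow lists were present in the libraries: 5 early neutrophil genes such as Mpo and Elane summed to between 1850 and 5090 FPKM. Of 4 hepatocyte genes none passed the filter, and their sum did not exceed 0.127 FPKM in any library. TBI+DEIX replicate 1 stood apart from the rest, at 53.3 on the first principal component against 7.7 and 21.5 for the other 2 libraries of its group, and several results are also given without it. Read depth is not recorded in FPKM. From the steps between low values, 1 read was worth 1.51 to 2.35 times as much in the TBI+DEIX libraries as in control replicate 1, 0.89 to 1.19 times in the TBI libraries and 1.11 to 1.68 times in the DEIX libraries. These are rough, since for TBI+DEIX replicate 1 and control replicate 3 the next best value fitted the steps almost as well. The genes S100a8, S100a9 and Ngp were listed at 0 in control replicate 3 and TBI+DEIX replicate 2 and took between 10.4% and 26.4% of the FPKM sum in the other libraries, and a scaling without them was run as an alternative.

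The 3 C1q genes lie side by side on the minus strand of chromosome 4 (GRCm38): C1qb at 136880129 to 136886187, C1qc at 136889804 to 136893065 and C1qa at 136895917 to 136898803. The gaps between them are 3616 and 2851 bases, and no other protein-coding gene lies between neighbours. Stretches before the start of 3 members are printed because C1qb and C1qc carry the shared pattern described next and C3 has a different one. They are reference sequence from RefSeq (GRCm38.p6), 5′ to 3′ on the gene's strand, and end at the RefSeq start or, for C1qc, where the first annotated exon begins. Capitals mark matches on either strand to 4 short motifs: GAGGAA (the PU.1 core), TGCTGA (the core bound by MAF factors), TTGCNNAA (C/EBP) and GAAANNGAA (IRF). No match overlaps another in these sequences.
C1qb, chr4:136886201-136886450, minus strand: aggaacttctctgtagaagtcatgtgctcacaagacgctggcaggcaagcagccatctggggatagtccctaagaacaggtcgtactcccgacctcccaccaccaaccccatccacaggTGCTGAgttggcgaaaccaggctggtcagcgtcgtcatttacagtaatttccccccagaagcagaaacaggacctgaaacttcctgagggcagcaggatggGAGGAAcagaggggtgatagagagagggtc
C1qc, chr4:136893066-136893164, minus strand: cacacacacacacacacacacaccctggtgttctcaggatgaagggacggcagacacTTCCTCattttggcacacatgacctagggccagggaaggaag
C3, chr17:57228137-57228386, minus strand: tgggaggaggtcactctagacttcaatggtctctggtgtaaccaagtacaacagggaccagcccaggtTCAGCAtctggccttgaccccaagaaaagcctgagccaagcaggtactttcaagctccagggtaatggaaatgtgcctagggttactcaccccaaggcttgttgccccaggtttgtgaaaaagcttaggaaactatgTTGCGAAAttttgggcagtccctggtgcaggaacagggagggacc
The table held windows for 8 of the 9 members, all but C1qa. Over the 250 bases before the start, GAGGAA was found in 2 of the 8 (C1qb and C1qc) and in 23.3% of 32851 promoter windows of all genes. TGCTGA was found in 5 of the 8 against 16.1% of all windows, TTGCNNAA in 1 of the 8 (C3) against 9.56%, and GAAANNGAA in 1 of the 8 (C5ar1) against 7.13%. A match is a stretch of letters and does not show that a factor binds there.

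C1q transcripts were lower than in control after irradiation alone and after DEIX alone, and stood near the control level when irradiated mice received DEIX. C1qa, the A chain, was at 38.2, 40.4 and 36.1 FPKM in control replicates 1, 2 and 3, at 20.3, 19.4 and 12.9 with TBI, at 22.3, 43.9 and 33.7 with TBI+DEIX, and at 12.5, 9.23 and 12.8 with DEIX. Every TBI and every DEIX library was below every control library, and every TBI+DEIX library was above every TBI library. The group means were 38.2 ± 2.13 in control, 17.5 ± 4.03 with TBI, 33.3 ± 10.8 with TBI+DEIX and 11.5 ± 1.98 with DEIX (SD, n = 3), so the mean was 2.18-fold lower with TBI and 3.32-fold lower with DEIX than in control, and 1.9-fold higher with TBI+DEIX than with TBI. In a bulk sample, fewer C1q-producing cells and less C1q RNA per cell cannot be told apart.

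C1qb, the B chain, was at 37.3, 36.7 and 31.9 FPKM in control, 21.4, 20.1 and 12.8 with TBI, 27.1, 45.0 and 36.5 with TBI+DEIX, and 13, 10.6 and 12.9 with DEIX. Its groups separated as those of C1qa did: the mean was 1.95-fold lower with TBI and 2.90-fold lower with DEIX than in control, and 2.00-fold higher with TBI+DEIX than with TBI. C1qc, the C chain, was at 25.6, 28.3 and 23.6 FPKM in control, 15.3, 13.8 and 9.79 with TBI, 14.2, 28.1 and 21.5 with TBI+DEIX, and 7.81, 6.32 and 9.10 with DEIX. Here TBI+DEIX replicate 1 fell inside the TBI range, so those groups overlapped, while the TBI and DEIX libraries again lay below all control libraries. The lowest and highest libraries differed 4.75-fold for C1qa, 4.23-fold for C1qb and 4.48-fold for C1qc.

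Within each library the 3 chains kept a narrow proportion to one another. Over the 12 libraries C1qb stood at 0.884 to 1.22 times the FPKM of C1qa (median 1.03) and C1qc at 0.623 to 0.757 times (median 0.677). The C1qb ratio was 0.884 to 0.974 in control, 0.988 to 1.05 with TBI, 1.03 to 1.22 with TBI+DEIX and 1.01 to 1.15 with DEIX. In the same order the C1qc ratio was 0.655 to 0.702, 0.713 to 0.757, 0.637 to 0.64 and 0.623 to 0.712. The protein itself carries the chains in equal numbers. The 3 chains summed to 91.6 to 105 FPKM in the control libraries, 35.5 to 57.1 with TBI, 63.6 to 117 with TBI+DEIX and 26.2 to 34.8 with DEIX. The control, TBI and DEIX ranges did not touch one another, and TBI+DEIX spanned the space from just above TBI to above control.

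**Figure D1:**
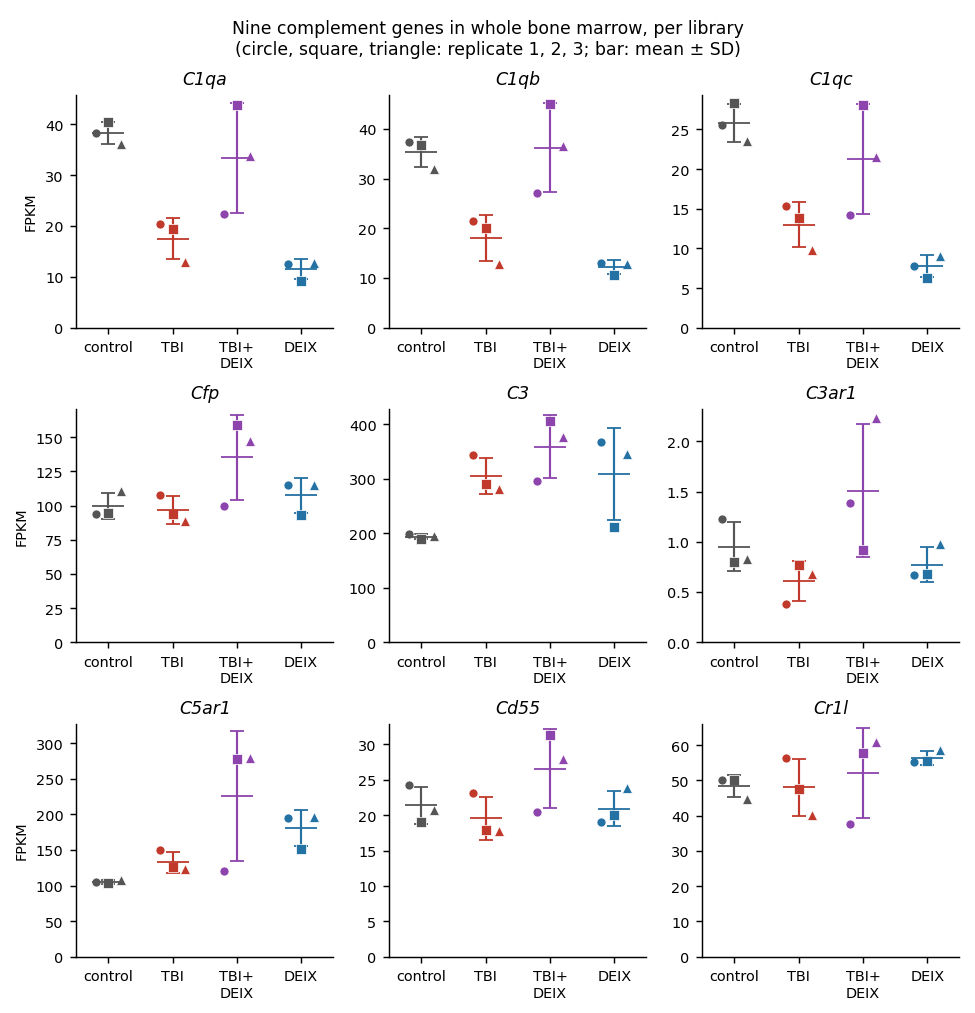
FPKM of the 9 complement genes in each library, 1 panel per gene with its own axis starting at 0; symbols are replicates 1 to 3 and the bars are the group mean ± SD (n = 3). The 3 C1q chains share 1 profile, low with TBI and DEIX, while C3 and C5ar1 lie lowest in control.

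Differences were fitted with limma on log2(FPKM + 1) over all 12 libraries with Benjamini-Hochberg adjustment over all 10994 tested genes, and a gene past an adjusted p of 0.05 is called. On this scale C1qa differed by -1.10 ± 0.23 (SE), C1qb by -0.95 ± 0.20 and C1qc by -0.96 ± 0.23 in TBI against control. They were the 3 of 9 members called in that comparison, where 3.99% of all tested genes were called. In DEIX against control the differences were -1.66 ± 0.23 for C1qa, -1.46 ± 0.20 for C1qb and -1.63 ± 0.23 for C1qc, again 3 of 9 members called, against 7.24% of all tested genes. In TBI+DEIX against TBI they were 0.86 ± 0.23, 0.96 ± 0.20 and 0.64 ± 0.23, with C1qa and C1qb called, 2 of 9 members against 8.10% of all tested genes. Against control, TBI+DEIX differed by -0.24, 0.01 and -0.32, none of them called.

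The DEIX difference in irradiated marrow minus that in unirradiated marrow, the interaction, was 2.52 ± 0.33 for C1qa, 2.43 ± 0.29 for C1qb and 2.27 ± 0.32 for C1qc. The interaction called 22 of 10994 genes, or 0.200%, and 3 of the 9 members were among them. Of the 22, the only gene with a negative interaction was Fn1, encoding fibronectin, at -2.2 ± 0.29.

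The DEIX difference from control held its call for all 3 chains under each of the 21 alternatives run. Most other calls depended on single libraries. In TBI against control, where leaving out 1 library gave 153 to 1337 calls over all genes, none of the 9 members was called when control replicate 1, 2 or 3, or TBI replicate 2 or 3, was left out, though the C1qa difference only ranged from -1.22 to -0.91. Over all 21 alternatives the C1qa and C1qb calls were each lost in 5 and the C1qc call in 12. In TBI+DEIX against TBI the count of members called was 0 in a fit limited to both groups, on the TPM scale, and after dropping either TBI replicate 3 or TBI+DEIX replicate 3. Over the 21 alternatives the C1qa call was lost in 14 and the C1qb call in 4. The calls over all tested genes moved in the same settings, to 0 in the fit limited to both groups, 157 on the TPM scale, 5 without TBI replicate 3 and 51 without TBI+DEIX replicate 3. After dropping TBI+DEIX replicate 1, 7 of 9 members were called beside 2836 of the 10994 tested genes: C1qa at 1.11, C1qb at 1.15, C1qc at 0.89, Cfp, C5ar1 at 1.07, Cd55 and C3ar1. The filter was set on all 12 libraries, and without that library C3ar1 reached 1 FPKM in too few to pass it, so its call is not read. The members called in the interaction fell to 2 without control replicate 2, DEIX replicate 1 or DEIX replicate 2 and to 1 after dropping control replicate 1, TBI replicate 2 or control replicate 3, and C1qb was called in all 20 alternatives.

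**Figure D2:**
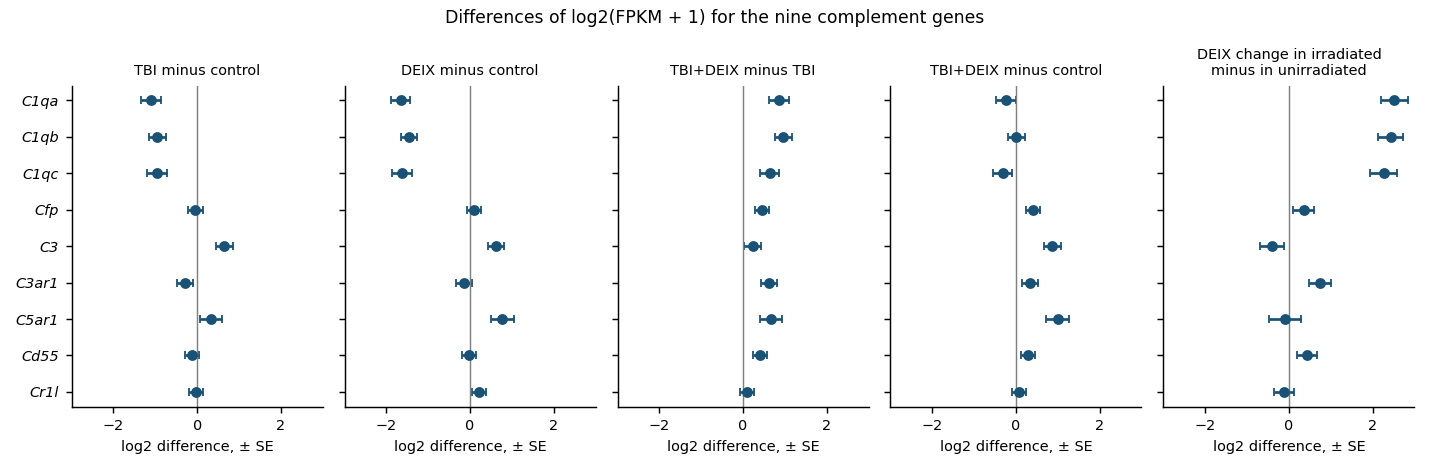
Differences in log2(FPKM + 1) ± SE for the 9 genes in 4 group comparisons and the interaction, from the limma fit over 12 libraries. The C1q chains lie left of 0 in TBI and DEIX against control and at 2.27 to 2.52 in the interaction; C3 and C5ar1 lie right of 0 in TBI+DEIX against control, at 0.87 and 1.00.

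Genes known from resident macrophages were read beside C1q. Of 15 listed genes 14 were tested, among them Spic, the transcription factor of iron-recycling macrophages, Cd5l, a secreted macrophage protein, and the scavenger and efferocytosis receptor genes Siglec1, Axl and Mertk. In DEIX against control 11 of the 14 were lower (median -0.66) and 5 were called lower: Spic (-1.74 ± 0.28, adjusted p = 0.00753), Cd5l (-1.72 ± 0.21, adjusted p = 0.00309), Axl (-1.32 ± 0.30, adjusted p = 0.0288), Siglec1 (-1.18 ± 0.28, adjusted p = 0.0326) and Mertk (-0.77 ± 0.18, adjusted p = 0.0298). In TBI against control 12 of 14 were lower (median -0.40) and none was called. In TBI+DEIX against TBI 13 of 14 were higher (median 0.46), and Hmox1, the heme-degrading enzyme, was called at 0.78 ± 0.19 (adjusted p = 0.0353). In the interaction 12 of 14 were positive (median 1.21), and Spic (2.51 ± 0.40, adjusted p = 0.0338) and Cd5l (2.2 ± 0.30, adjusted p = 0.016) were called. Over all tested genes 7.24% were called in DEIX against control, 8.10% in TBI+DEIX against TBI and 0.200% in the interaction.

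Of the most abundant genes of the list, 2 had other patterns, while Hmox1 was at 67.9 ± 6.68 FPKM in control, 59.2 ± 13.1 with TBI, 102 ± 23.2 with TBI+DEIX and 50.4 ± 2.81 with DEIX. The summed level was 291 to 361 FPKM in control, 244 to 341 with TBI, 303 to 456 with TBI+DEIX and 268 to 339 with DEIX, ranges that all overlap, and no gene of the list was at 0 in a whole group. Slc40a1, the iron exporter, was at 93.8 ± 6.98 FPKM in control and 93.8 ± 17.6 with DEIX. Csf1r, the receptor for macrophage colony-stimulating factor, was at 68.2 ± 5.82 in control and 110 ± 29.8 with DEIX. Csf1r is also on the list of 12 monocyte genes. In DEIX against control 11 of these were higher (median 0.61, 3 called higher, beside 7.24% of all tested genes). In TBI+DEIX against TBI 11 were lower (median -0.69, 3 called lower, beside 8.10%). All 12 were negative in the interaction (median -1.36, 1 called, beside 0.200%). The list's median of log2(FPKM + 1) minus each gene's mean was -1.51, -0.51 and -0.06 in TBI+DEIX replicates 1, 2 and 3. In TBI replicates 1, 2 and 3 it was 0.20, -0.11 and -0.50. The part of macrophage and monocyte numbers in the C1q levels was not tested.

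**Figure D3:**
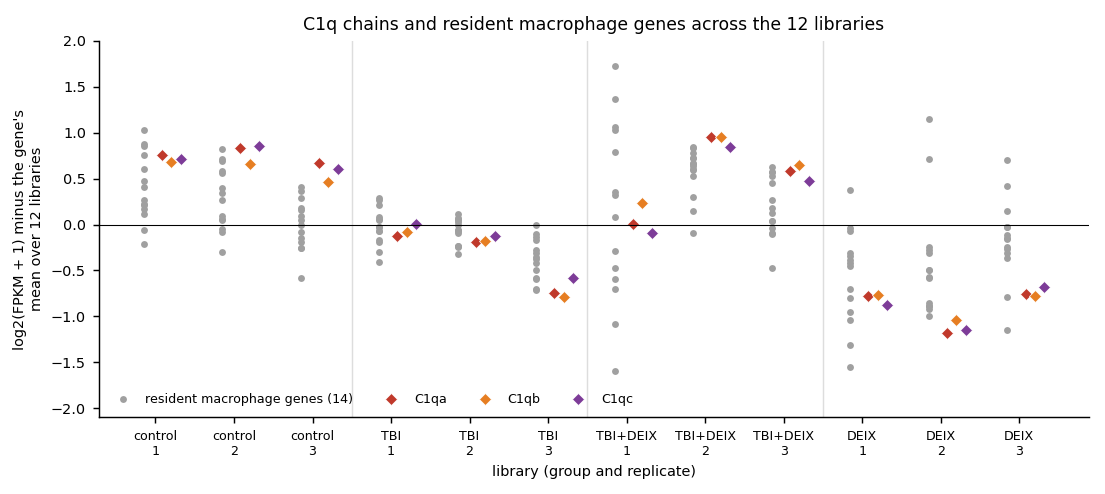
Each library's log2(FPKM + 1) minus the gene's mean over the 12 libraries, for the 3 C1q chains (diamonds) and 14 resident macrophage genes (grey points). C1q lies above its mean in the control libraries and in TBI+DEIX replicates 2 and 3, and lowest in the DEIX libraries and TBI replicate 3; in TBI+DEIX replicate 1 the macrophage genes scatter widely around C1q.

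Among 8180 named genes with a mean of at least 5 FPKM, the profiles over the 12 libraries nearest to the mean C1q profile, by root mean square difference in centred log2(FPKM + 1), were Axl (0.30), Cd5l (0.34), Sdc3 (0.38), Fcna (0.40) and Igtp (0.41). The C1q profile itself had a size of 0.68 on that measure, and the chains differed from one another by 0.09 to 0.16. Axl, Cd5l and Fcna are macrophage-expressed genes by common knowledge, Sdc3 encodes a syndecan and Igtp an interferon-induced GTPase. Fcna, which encodes ficolin A, a pattern-recognition starter of the lectin pathway, was at 19.2, 18.6 and 14.6 FPKM in control, 13.1, 11 and 8.56 with TBI, 7.29, 19.5 and 6.96 with TBI+DEIX, and 4.37, 4.13 and 6.38 with DEIX. All DEIX libraries were below all control libraries, and Fcna was called lower (-1.64 ± 0.32, adjusted p = 0.0152 by limma). The likeness to C1q and this call rest on the same 12 libraries, so neither supports the other. The call was lost without control replicate 1 (adjusted p = 0.0629), control replicate 2 (0.0708) or DEIX replicate 1 (0.0733), and without TBI+DEIX replicate 2 Fcna was called in TBI+DEIX against control too (-1.18, adjusted p = 0.00286).

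C3 and properdin were the most abundant complement components of the set. C3 (chromosome 17, 57203970 to 57228136) was at 198, 189 and 194 FPKM in control, 343, 291 and 281 with TBI, 295, 406 and 376 with TBI+DEIX, and 368, 211 and 346 with DEIX. Every library of the 3 treated groups was above every control library, and DEIX replicate 2 was the nearest to control. The mean was 194 ± 4.42 in control, 305 ± 33.4 with TBI, 359 ± 57.5 with TBI+DEIX and 308 ± 85.4 with DEIX. The differences from control were 0.65 ± 0.20, 0.87 ± 0.20 and 0.62 ± 0.20 on the log2 scale, and the one with TBI+DEIX was called, as it was in each of 21 alternatives. The difference with TBI was called in 3 alternatives, without TBI+DEIX replicate 1, without DEIX replicate 2 and in a fit limited to both groups, and that with DEIX in 2, without TBI+DEIX replicate 1 (0.62) and without DEIX replicate 2 (0.88). Hepatocyte genes were near 0 in every library, as given above.

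Properdin (Cfp, X chromosome, 20925454 to 20931555) differed little between the groups. Its levels were 93.7, 94.3 and 111 FPKM in control, 108, 93.9 and 88.4 with TBI, 99.6, 159 and 147 with TBI+DEIX, and 115, 92.8 and 115 with DEIX. All groups overlapped control, and the highest values were TBI+DEIX replicates 2 and 3. Its TBI+DEIX difference from TBI was 0.45 ± 0.17, which was not called, and 0.66 ± 0.13 without TBI+DEIX replicate 1, which was, as was its difference from control then (0.61).

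The receptor for C5a was abundant and the receptor for C3a was not. C5ar1 (chromosome 7, 16246743 to 16259540) was at 105, 103 and 108 FPKM in control, 150, 126 and 123 with TBI, 121, 278 and 279 with TBI+DEIX, and 195, 152 and 197 with DEIX. As with C3, all libraries of the treated groups were above the 3 control libraries, and TBI+DEIX replicate 1 lay just below the TBI libraries while the other 2 were the highest of all 12. The differences from control were 0.33 ± 0.27 with TBI, 0.77 ± 0.27 with DEIX and 1.00 ± 0.27 with TBI+DEIX, the last of them called. The difference with DEIX was called in 3 of 21 alternatives, without TBI+DEIX replicate 1, in a fit limited to both groups, and on the TPM scale without S100a8, S100a9 and Ngp. The call with TBI+DEIX was lost without control replicate 2, TBI+DEIX replicate 2 or TBI+DEIX replicate 3, and in a fit limited to both groups, and lay at the threshold without control replicate 1. Without TBI+DEIX replicate 1 the difference was 1.39 ± 0.13.

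C5ar2, a second C5a receptor that signals differently, lies 2588 bases from C5ar1 and did not pass the threshold in any comparison of all 12 libraries. Without TBI+DEIX replicate 1 it was called in TBI+DEIX against TBI (0.54, adjusted p = 0.0203) and against control (0.51, adjusted p = 0.0145). It was at 10.8, 11.4 and 12.1 FPKM in control, 11.5, 11.4 and 10.6 with TBI, 11.4, 18.9 and 14.8 with TBI+DEIX, and 10.7, 11.3 and 15 with DEIX. C5ar1 exceeded it 9.22 ± 0.454 times in control, 11.9 ± 1.07 times with TBI, 14.7 ± 4.13 times with TBI+DEIX and 14.9 ± 2.87 times with DEIX (SD, n = 3). C3ar1 (chromosome 6, 122847138 to 122856161) was at 1.23, 0.795 and 0.828 FPKM in control, 0.381, 0.773 and 0.675 with TBI, 1.39, 0.914 and 2.23 with TBI+DEIX, and 0.669, 0.676 and 0.975 with DEIX. The TBI libraries were all below those of control and of TBI+DEIX. C3ar1 reached 1 FPKM in 3 libraries, the fewest that the filter allows, and 2 of them were TBI+DEIX libraries, so its place among the tested genes depended on that group. Its difference in TBI+DEIX against TBI was 0.62, and no call is read from it.

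The profiles nearest to C5ar1 were Slc16a3 (0.09), Fpr2 (0.09), Litaf (0.10), Padi4 (0.11) and Grina (0.12), against a size of 0.49 for C5ar1 itself. Fpr2, a formyl peptide receptor, and Padi4, the enzyme that citrullinates histones, are well-known neutrophil genes. Of 12 maturing neutrophil genes, a list that holds Padi4, 9 were higher in TBI against control (median 0.27, none called). In DEIX against control 10 were higher (median 0.60, 1 called, beside 7.24% of all tested genes). With TBI+DEIX 10 were higher than with TBI (median 0.40, none called). Against control 10 were higher with TBI+DEIX (median 0.83, 5 called, beside 30.0% of all tested genes). The list summed to 22400 to 31100 FPKM in control and 26300 to 32700 with TBI. With TBI+DEIX the sum was 21900 to 54000, and with DEIX 26900 to 37500. The list's median centred log2(FPKM + 1) was -0.49 in TBI+DEIX replicate 1, against 0.75 and 0.76 in replicates 2 and 3. In control it was -0.46 to -0.37. The part of neutrophil numbers or maturity in the C3 and C5ar1 levels was not tested. For C3 the nearest profiles were Abhd5 and Tmco3 (both 0.11), then Zdhhc3, Cpne3 and Fmo5 (each 0.12), against its own size of 0.39.

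Of the membrane regulators, neither was called in any comparison of all 12 libraries. Cd55 (chromosome 1, 130439027 to 130462744) was at 24.3, 19.1 and 20.7 FPKM in control, 23.1, 17.9 and 17.7 with TBI, 20.4, 31.3 and 28.0 with TBI+DEIX, and 19.0, 20.0 and 23.8 with DEIX. Cr1l (chromosome 1, 195097382 to 195131586) was at 50.2, 50.2 and 44.8 FPKM in control, 56.4, 47.6 and 40.2 with TBI, 37.6, 57.8 and 60.9 with TBI+DEIX, and 55.1, 55.5 and 58.6 with DEIX. Only the DEIX libraries of Cr1l stood clear of control, all 3 above it. Cd55 differed by 0.41 ± 0.17 in TBI+DEIX against TBI and by 0.58 ± 0.14 without TBI+DEIX replicate 1, when it was called, as it then was against control (0.46). Cr1l lies between its relatives Cd46 (5132 bases away) and Cr2 (5224 bases away), and Cd55 has a near copy, Cd55b, 16017 bases away that did not exceed 0.0418 FPKM. How reads shared by such relatives were assigned is not given in the sources used here.

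In order of mean FPKM over the 12 libraries the members ran C3 (292), C5ar1 (161), Cfp (110), Cr1l (51.2), C1qb (25.4), C1qa (25.1), Cd55 (22.1), C1qc (17.0) and C3ar1 (0.961). The ranges of neighbours in this order overlapped over the 12 libraries, except that Cfp (88.4 to 159) lay wholly above Cr1l (37.6 to 60.9) and C1qc (6.32 to 28.3) wholly above C3ar1 (0.381 to 2.23). All 9 members were higher in TBI+DEIX than in TBI in the limma fit. The median difference was 0.62, the value of C3ar1, against 0.00 over all tested genes. In alternatives Cr1l turned to -0.03 on the TPM scale or without TBI+DEIX replicate 3, and to -0.02 without TBI replicate 3. On the TPM scale without S100a8, S100a9 and Ngp it was -0.01. In TBI against control the median of the members was -0.12 against 0.05 over all genes, in DEIX against control -0.03 against 0.02, in TBI+DEIX against control 0.29 against 0.02 and in the interaction 0.44 against -0.02. In TBI+DEIX against control 2 of 9 members were called, C3 and C5ar1, while 30.0% of all tested genes were.

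Libraries of the compared groups did not overlap for 6 of the 9 members in TBI against control, where 38.2% of all tested genes did not, and for 6 in DEIX against control, where 40.6% did not. The count was 3 in TBI+DEIX against TBI, where it was 27.2% of all genes, and 2 in TBI+DEIX against control, where it was 44.9%. C3ar1 is among the 6 in TBI against control and the 3 in TBI+DEIX against TBI. Its place among the tested genes depended on the TBI+DEIX group. Over all tested genes the median SD of log2(FPKM + 1) within a group was 0.24 with TBI+DEIX, 0.14 with DEIX, 0.13 with TBI and 0.10 in control. Of the members C5ar1 spread most with TBI+DEIX (0.69), C3 with DEIX (0.44 against 0.24 with TBI+DEIX) and C1qb with TBI (0.38 against 0.36).

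The remaining complement genes came from a list of 48, of which 47 were in the table and 17 were tested. In TBI against control 3 of the 17 were called (1 higher, 2 lower) beside 3.99% of all tested genes, in DEIX against control 4 (3 higher, 1 lower) beside 7.24%, in TBI+DEIX against TBI 4 (2 higher, 2 lower) beside 8.10% and in TBI+DEIX against control 9 (5 higher, 4 lower) beside 30.0%. Their medians were -0.03, 0.09, 0.00 and 0.28. These counts include C4b, Cr2 and Cd59b, which passed the filter only through groups where they were high. In the interaction the limma fit called none of the 17, with 4 at an unadjusted p under 0.05, against 1 on the TPM scale and without TBI+DEIX replicate 1 or 3. Single libraries moved these counts: in TBI+DEIX against TBI 8 of the 17 were called after dropping TBI+DEIX replicate 1 (2836 of all tested genes), 1 after dropping replicate 3 of that group (51 of all) and 0 after dropping TBI replicate 3 (5 of all). In DEIX against control 1 was called without control replicate 1 (186 of all), control replicate 2 (146) or DEIX replicate 1 (165).

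Factor B (Cfb), the alternative pathway protease that binds C3b, was raised when irradiated mice received DEIX. It was at 1.42, 1.43 and 1.45 FPKM in control, 0.81, 1.24 and 0.698 with TBI, 3.25, 4.36 and 9.44 with TBI+DEIX, and 1.32, 3.62 and 1.56 with DEIX. All TBI+DEIX libraries were above all TBI and control libraries, and limma called Cfb higher against TBI (1.70 ± 0.32, adjusted p = 0.0188) and against control (1.35, adjusted p = 0.00938). The call against TBI was lost without TBI replicate 3 (adjusted p = 0.0955), without TBI+DEIX replicate 3 (0.0563) and in a fit limited to both groups (0.144). C4b, the classical and lectin pathway component C4, was at 0.54, 0.791 and 0.329 FPKM in control, 0.816, 0.759 and 0.3 with TBI, 1.99, 1.61 and 8.36 with TBI+DEIX, and 2.55, 1.19 and 1.54 with DEIX. Every DEIX and TBI+DEIX library was above every control library. The 6 libraries at 1 FPKM or more were those of these groups, so C4b entered the test only through them and no p-value is given.

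The integrin chains of complement receptor 3, Itgam and Itgb2, were the most abundant complement genes measured, at means of 378 and 450 FPKM. Itgam was at 249, 240 and 238 FPKM in control, 428, 345 and 304 with TBI, 426, 542 and 564 with TBI+DEIX, and 426, 315 and 455 with DEIX. Itgb2, which pairs with other integrin chains too, was at 322, 310 and 316 FPKM in control, 464, 398 and 360 with TBI, 538, 629 and 661 with TBI+DEIX, and 473, 440 and 495 with DEIX. For both genes every treated library exceeded every control library, and limma called both in TBI+DEIX against control, Itgam at 1.06 (adjusted p = 0.00185) and Itgb2 at 0.94 (adjusted p = 0.000818), in all alternatives. In DEIX against control Itgam stood at 0.70 (adjusted p = 0.0423) and Itgb2 at 0.57 (adjusted p = 0.0338), and both calls were lost on the TPM scale (adjusted p = 0.177 and 0.281), without any 1 of the control libraries and without TBI replicate 2, DEIX replicate 1 or DEIX replicate 3 (0.0594 to 0.158), that of Itgam also without TBI+DEIX replicate 2 (0.0519), with median-of-ratios scaling (0.0563) and with no filter (0.0569). Without TBI+DEIX replicate 1 Itgam was also called in TBI against control (0.55, adjusted p = 0.0408, and 0.0339 in a fit limited to both groups) and in TBI+DEIX against TBI (0.64, adjusted p = 0.0238). Itgb2 in TBI+DEIX against TBI (0.58 ± 0.14, adjusted p = 0.0324) was not called on the TPM scale (adjusted p = 0.227), nor without control replicate 1 or 2, or replicate 2 or 3 of either irradiated group (0.0543 to 0.145), nor in a fit limited to both groups (0.185) or on the TPM scale without the 3 abundant genes (0.0596).

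Cr2 and Cd93 were lower in the irradiated groups than in control. Cr2, the C3d receptor of B cells, was at 1.41, 0.861 and 1.18 FPKM in control and 0.516, 0.582 and 1.18 with DEIX, but did not exceed 0.0422 with TBI or 0.0354 with TBI+DEIX. Cr2 reached 1 FPKM in 3 libraries, all unirradiated, so it entered the test only through the groups where it was high and no p-value is given for it. The 11 B lineage genes, a list that holds Cr2, were all lower than control in TBI (median -1.86), DEIX (median -2.35) and TBI+DEIX (median -3.02). They summed to 510 to 632 FPKM in control, 31.6 to 397 with TBI, 7.16 to 220 with TBI+DEIX and 70.2 to 110 with DEIX. Calls in this list are not read, since Cr2 is among its genes and Fcmr, too, was below 1 FPKM in every irradiated library. The part of B lineage genes in Cr2 was not tested. Cd93, once taken for a C1q receptor and known as a marker of early progenitors and endothelium, was at 29.1, 25.9 and 25.2 FPKM in control, 12.9, 13.5 and 15.3 with TBI, 7.70, 8.55 and 6.20 with TBI+DEIX, and 24.9, 20.0 and 22.6 with DEIX. Limma called Cd93 lower in TBI against control (-0.90 ± 0.13, adjusted p = 0.00296), in TBI+DEIX against TBI (-0.82, adjusted p = 0.0128) and in TBI+DEIX against control (-1.71, adjusted p = 4.1e-05). On the TPM scale the first missed the threshold (adjusted p = 0.0558), as did the second (0.0512), which was also lost without TBI replicate 3 (0.076) and in a fit limited to both groups (0.144).

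The terminal inhibitor genes Cd59a and Cd59b, near copies of one another, were low and lower with TBI+DEIX. Cd59b was at 1.37, 1.52 and 1.96 FPKM in control, 1.34, 0.804 and 1.70 with TBI, 0.224, 0.563 and 0.178 with TBI+DEIX, and 0.463, 0.539 and 1.05 with DEIX. Every TBI+DEIX library was below every TBI and control library, and none reached 1 FPKM, so Cd59b too entered the test only through the other groups. Limma called Cd59a in TBI+DEIX against control alone (-1.19 ± 0.40, adjusted p = 0.0421). That call was lost without any 1 of the control libraries, TBI replicate 3, TBI+DEIX replicate 2 or 3, or DEIX replicate 3 (0.0531 to 0.114). It was also lost with no filter (0.0745) and with the replicate number as a block (0.0671). Without TBI+DEIX replicate 1 Cd59a was also called in TBI+DEIX against TBI (-1.31, adjusted p = 0.0417). Erythroid genes, whose cells carry this protein, summed to 3620 to 5760 FPKM in control, 1930 to 9060 with TBI, 167 to 1750 with TBI+DEIX and 1450 to 8910 with DEIX, and their part in it was not tested.

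**Figure D4:**
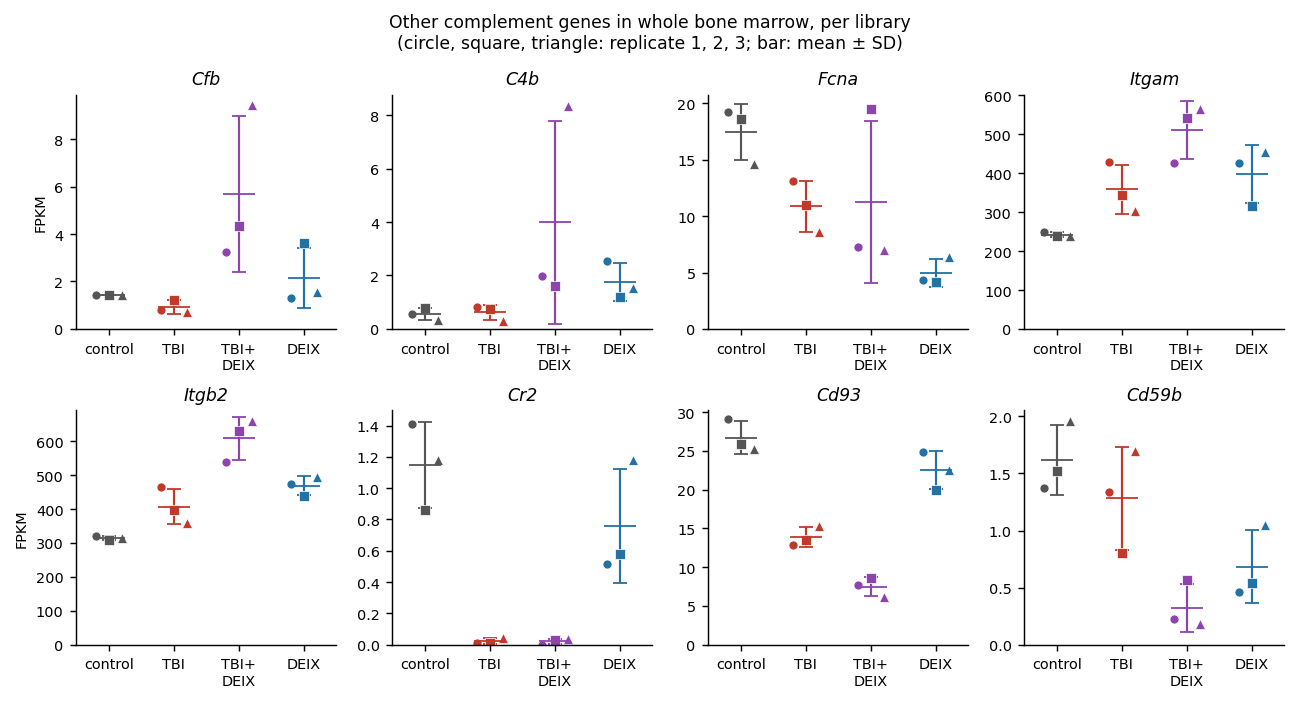
FPKM of 8 other complement genes in each library, 1 panel per gene with its own axis starting at 0; symbols are replicates 1 to 3 and bars the group mean ± SD (n = 3). Itgam and Itgb2 are above control in every treated library, Cr2 is near 0 in both irradiated groups, and Cd93 is lowest with TBI+DEIX.

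Of the 17 tested genes 7 passed no threshold: C1ra, Fcnb, C5ar2, Itgax, Cd46, Clu and Serping1. Fcnb, the ficolin made by neutrophil precursors, was among the most abundant at a mean of 283 FPKM, with 236, 267 and 264 in control, 345, 377 and 294 with TBI, 106, 322 and 371 with TBI+DEIX, and 346, 198 and 273 with DEIX. Terminal pathway genes were close to the floor of the table. Over the 12 libraries C8g had the highest mean at 0.548 FPKM, followed by the C5 gene Hc at 0.492. C8b and C9 were listed at 0 in all 12 libraries. Hc, which was not tested, was at 0.106 to 0.248 FPKM in control and 0.296 to 0.566 with TBI. It was at 0.663 to 1.57 with TBI+DEIX and 0.18 to 0.447 with DEIX. Of the early proteases, C2 and Cfd (factor D) were also low, with means of 0.195 and 0.146 FPKM. C1ra had a mean of 1.66 and Cfb of 2.55.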

How the data were processed

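Total RNA of whole bone marrow cells was sequenced with a directional messenger RNA kit, per the labels' protocols. The deposited values are FPKM per gene and library, computed by the authors. STAR 2.6, Cufflinks 2.2.1 and mm10 are named in the submitters' processing notes; their settings and the annotation are not given in the sources used here. All 21853 identifiers matched GENCODE vM21 (GRCm38), which gave symbols and coordinates. Count models were not used, since counts cannot be read from FPKM, and depth is known only relative to other libraries. Levels were tested with limma 3.58.1 (R 4.3.3) on log2(FPKM + 1), a pseudocount of 1 that understates changes of low genes, over genes with at least 1 FPKM in at least 3 libraries. The fit used 4 group means over all 12 libraries (8 residual degrees of freedom) with a mean-variance trend, Benjamini-Hochberg adjustment over 10994 genes and a threshold of 0.05, and was tested on simulated data.

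The 9 members and all gene lists were chosen with earlier results of these data known. Besides the members, other complement genes were named where past the threshold, up to 8 per comparison, or among the 5 most abundant; markers named with them were chosen after their values were seen. Alternatives were a pseudocount of 0.1, other filters, 3 scalings, fits of only the groups compared or without the trend, the replicate number as a block, and each library left out. Promoter windows came from RefSeq. 1 gene of the list of other complement genes is counted but not reported here.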

Additional observations from a re-analysis of the deposited data

Results flagged for a closer look

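The DEIX difference of the 3 C1q genes was not the same in irradiated and unirradiated marrow. In the limma interaction over 12 libraries the log2 difference was 2.52 for C1qa, 2.43 for C1qb and 2.27 for C1qc, each past an adjusted p of 0.05. DEIX libraries were below all control libraries for the 3 genes, and TBI+DEIX libraries were above all TBI libraries for C1qa and C1qb but not C1qc. These genes were proposed with these libraries known, and the test used the same libraries, so it is no independent evidence. Over the 20 alternatives the interaction ranged from 2.30 to 2.77 for C1qa, 2.21 to 2.62 for C1qb and 2.06 to 2.52 for C1qc, and without TBI+DEIX replicate 1 it was 2.77, 2.62 and 2.52. The call was lost in 3 of the 20 for C1qa and in 6 for C1qc, and in none for C1qb. Of the resident macrophage genes, 12 of 14 were positive in the same interaction, and their part in it was not tested.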

How the results depend on the processing

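No called single-gene value changed sign under any alternative. Of 2154 single-gene values under alternatives, 117 lost a call and 37 gained one, and 51 that were called in neither setting changed sign.

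The number of all genes called moved with the scale. On the TPM scale it was 253 in TBI against control, 157 in TBI+DEIX against TBI, 282 in DEIX against control and 1785 in TBI+DEIX against control; with S100a8, S100a9 and Ngp left out of the sums it was 291, 488 and 408 in the first 3. The TPM scale moved the median of all genes to -0.12 in TBI+DEIX against TBI and in DEIX against control, and the share of called genes that were higher from 57.9% to 34.4% and from 62.4% to 19.1% (29.9% and 49.0% without those 3 genes); it went from 56.2% to 30.6% in TBI+DEIX against control, from 22.3% to 9.49% in TBI against control and from 95.5% to 82.1% in the interaction. On the TPM scale members called in TBI+DEIX against TBI numbered 0 and other complement genes 2; other complement genes numbered 2 in DEIX against control and 1 in the interaction, on either TPM scale for the latter. With median-of-ratios scaling, and with no filter, 1 member was called in TBI+DEIX against TBI.

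With only the groups compared in the fit, all-gene counts were 1417, 0, 2057 and 2181 in the 4 group comparisons in that order; members were 0 in TBI+DEIX against TBI and 1 in TBI+DEIX against control, and other complement genes 6, 0 and 7 in the first 3. Without a filter 675 genes were called in TBI against control and 37 in the interaction, and with a mean of at least 5 FPKM 134 and 7, other complement genes then numbering 2 in TBI+DEIX against TBI and 4 in TBI+DEIX against control. A pseudocount of 0.1 gave 11 genes in the interaction. With the replicate block 474 genes and 1 member were called in TBI+DEIX against TBI, where C1qa and Itgb2 lost their calls, as Itgam and Itgb2 did in DEIX against control C1qc in TBI against control and Cd59a in TBI+DEIX against control. Deviations of same-numbered libraries correlated between -0.447 and 0.242 over 18 pairs of libraries, 3 of them over 0.1. For differently numbered libraries the range was -0.367 to 0.498. Whether the replicate numbers pair the libraries was not tested further.

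Leaving out 1 library at a time gave 153 to 1337 genes in TBI against control, 5 to 2836 in TBI+DEIX against TBI, 146 to 2394 in DEIX against control, 2004 to 4232 in TBI+DEIX against control and 4 to 331 in the interaction. In the same order members numbered 0 to 4, 0 to 7, 3 to 5, 1 to 4 and 1 to 3, and other complement genes 2 to 4, 0 to 8, 1 to 6, 7 to 10 and 0 to 1. The highest all-gene counts came without TBI+DEIX replicate 1. The causes were not tested. Array weights were not run as an alternative because their estimation did not converge. Depth limits genes near 1 FPKM, such as C3ar1, C4b, Cd59b and Cr2.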
